A study of Mus musculus with 6 samples.

Results

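The 8 aquaporin genes Aqp1, Aqp3, Aqp4, Aqp5, Aqp7, Aqp8, Aqp9 and Aqp11 were followed in intestinal cells sorted from CCK-EGFP transgenic mice, out of 18193 genes measured. They were chosen for their values in this comparison, most of them lower and Aqp9 higher in the sorted cells, so their differences are given here as a description and were not tested. Every probe set annotated to 1 of these genes alone was taken, 17 in all, and the one brightest on average across all 6 arrays stood for its gene. The samples were 3 of EGFP-positive cells (CCK-EGFP) and 3 of cells without fluorescence (non-EGFP), sorted in equal number from enzyme-dissociated intestine of adult Swiss Webster (SW) mice. Both groups carry the CCK-EGFP transgene, in which green fluorescent protein is meant to mark cells making the gut hormone cholecystokinin (Cck), known as enteroendocrine I cells. The labels give neither the promoter construct nor the gut segment, and they leave unsaid whether replicates are different mice or 1 pool. Errors and p-values therefore measure only how far these samples differ among themselves, which may be technical spread. RNA was amplified from picogram amounts before hybridisation, and values are log2 RMA intensities, on which 1 unit is a doubling.

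Aquaporins are channels of the cell membrane that let water pass along an osmotic gradient. One branch of the family, the aquaglyceroporins, to which Aqp3, Aqp7 and Aqp9 belong, also passes glycerol and other small uncharged solutes. Aqp1, Aqp4, Aqp5 and Aqp8 are mainly water channels, and Aqp11 belongs to a divergent branch found on membranes inside the cell. In the gut they lie in the epithelium and in vessels and glands, where water follows the salt and sugar that epithelial cells absorb or secrete.

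The sort was checked first. Cck, which marks the sorted cells, stood at 13.52, 12.90 and 13.06 in CCK-EGFP cells, against 8.65, 8.35 and 8.89 in non-EGFP cells. It was higher by 4.53 (SE 0.25, limma with Benjamini-Hochberg adjusted p = 0.000192), and all 10 enteroendocrine markers listed were higher. Non-EGFP cells were nevertheless above background for all 10, and the labels' description calls both groups enteroendocrine. The background level, 4.60, is the 95th percentile of the means of 71 olfactory and vomeronasal receptor genes. CCK-EGFP replicate 3 stood apart from its group on enterocyte markers, whose mean was 12.35, 12.50 and 13.19 on CCK-EGFP replicates 1, 2 and 3 and 13.52, 13.59 and 13.52 on non-EGFP replicates 1, 2 and 3. Of the array's own controls for RNA quality, the 3' minus 5' log2 difference of Pcx also parted the groups, at 2.36 to 3.07 on CCK-EGFP arrays and 4.26 to 4.38 on non-EGFP arrays. The same difference overlapped for the transferrin receptor, Gapdh and beta-actin controls. Whether either measure has a part in the aquaporin values was not tested.

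The upstream sequences of the 4 members with the widest differences between the groups are shown first, to let the letters before genes with opposite differences be compared. Aqp9 had the widest positive difference, and Aqp3, Aqp1 and Aqp7 were the members lowest relative to non-EGFP cells. Aqp7 and Aqp3 are neighbouring protein-coding genes on mouse chromosome 4. Each sequence is the 250 bases before the annotated start of transcription (the most upstream one where there are several), from RefSeq, build GRCm38.p6, written 5' to 3' on the gene's own strand. Capitals mark matches on either strand to any of 6 short motifs.
Aqp9 (chr9:71163290-71163539, minus strand): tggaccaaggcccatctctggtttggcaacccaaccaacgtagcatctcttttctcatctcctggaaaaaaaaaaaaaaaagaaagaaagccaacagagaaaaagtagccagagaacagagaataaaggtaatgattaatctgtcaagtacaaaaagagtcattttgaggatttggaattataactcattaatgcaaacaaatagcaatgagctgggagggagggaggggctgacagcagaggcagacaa
Aqp3 (chr4:41098184-41098433, minus strand): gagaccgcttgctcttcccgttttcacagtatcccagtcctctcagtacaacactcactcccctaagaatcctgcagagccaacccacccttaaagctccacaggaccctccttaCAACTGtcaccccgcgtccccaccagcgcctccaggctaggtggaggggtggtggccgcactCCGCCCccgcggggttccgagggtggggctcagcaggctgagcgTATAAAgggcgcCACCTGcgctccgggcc
Aqp7 (chr4:41048137-41048386, minus strand): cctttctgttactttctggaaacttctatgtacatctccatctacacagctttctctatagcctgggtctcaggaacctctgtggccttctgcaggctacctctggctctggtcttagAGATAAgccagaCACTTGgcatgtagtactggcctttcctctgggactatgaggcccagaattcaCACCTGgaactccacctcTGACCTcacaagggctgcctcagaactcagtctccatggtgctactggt
Aqp1 (chr6:55336049-55336298, plus strand): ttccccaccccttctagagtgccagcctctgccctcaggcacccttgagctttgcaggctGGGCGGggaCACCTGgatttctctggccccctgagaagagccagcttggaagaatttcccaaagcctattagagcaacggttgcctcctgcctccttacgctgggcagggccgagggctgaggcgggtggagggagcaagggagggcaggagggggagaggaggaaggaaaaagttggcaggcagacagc

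The motifs searched were the TATA box TATAAA, the GC box GGGCGG, the E box CANNTG, a GATA site AGATAA, a homeodomain site TAATTA and a nuclear receptor half-site AGGTCA. Among 32851 mouse promoter windows of the same length, 12.4% held the TATA box, 32.7% the GC box, 66.2% the E box, 9.99% the GATA site, 4.84% the homeodomain site and 14.0% the half-site, overlaps between motifs being allowed. The Aqp3 window held a TATA box at positions -29 to -24 from the start, a GC box and 2 E boxes. The Aqp1 window held 1 GC box and 1 E box, and the Aqp7 window held 2 E boxes, 1 GATA site and 1 half-site. The Aqp9 window held none of these letters, though the window of its other annotated start held 3 E boxes. GC content was 40.4% for Aqp9, 50.8% for Aqp7, 62.0% for Aqp1 and 64.0% for Aqp3, against a median of 52.4% over all windows. Windows were also read for Aqp5, Aqp8 and Aqp11, whose GC content was 78.4%, 52.4% and 67.2%. These matches describe the letters alone.

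Across the 8 members, 6 had a lower and 2 a higher mean in CCK-EGFP cells, with a median log2 difference of -1.08, against -0.17 over all genes. In 6 the groups did not overlap with CCK-EGFP cells lower, in 1 (Aqp9) they did not overlap with CCK-EGFP cells higher, and in Aqp4 they overlapped. Among all 18193 genes, 28.1% had groups that did not overlap with CCK-EGFP cells lower and 21.8% with CCK-EGFP cells higher, 49.9% in all. Because the members were picked on this contrast, nothing is read from their count beside those shares. Both group means were above background for 5 members (Aqp1, Aqp3, Aqp4, Aqp7 and Aqp11), and 1 group mean was above it for Aqp5, Aqp8 and Aqp9. Fewer cells of a type that carries a channel and less of its RNA per cell cannot be told apart in these bulk samples.

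**Figure D1:**
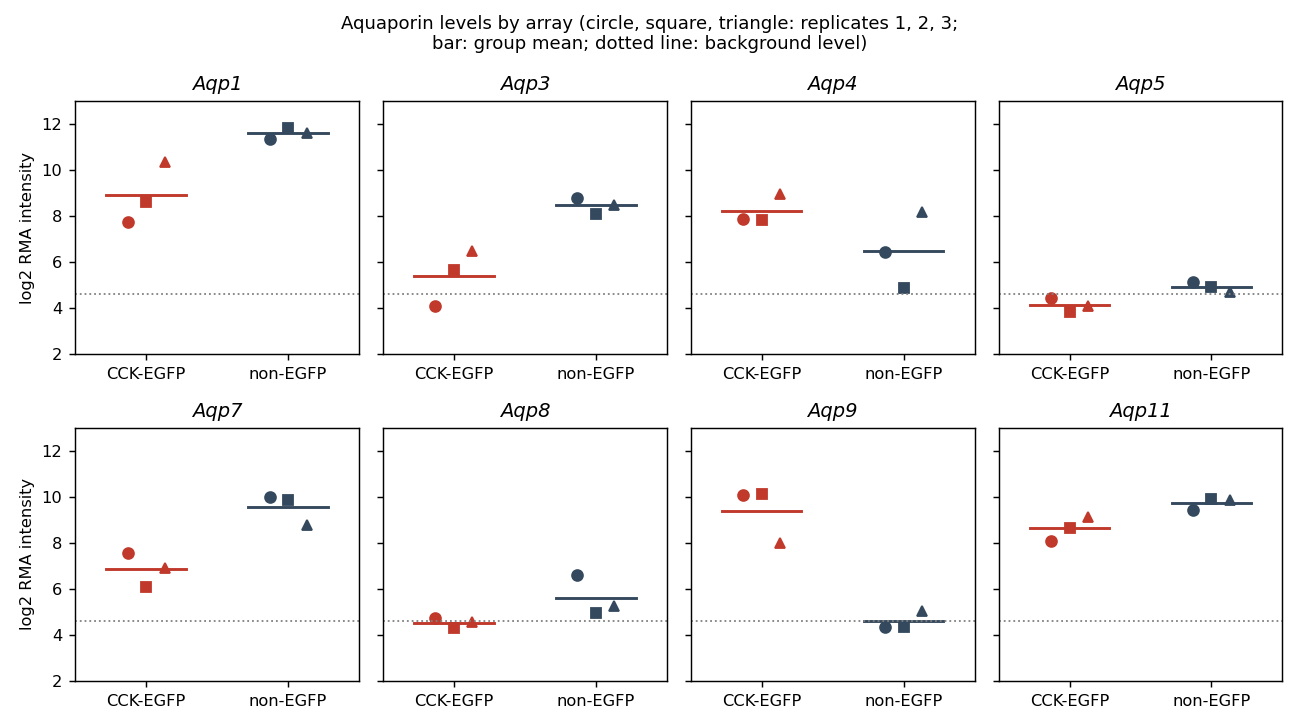
Log2 RMA intensity of each aquaporin gene on the 6 arrays, CCK-EGFP cells left and non-EGFP cells right, with symbols for replicates 1 to 3, a bar for the group mean and a dotted line at the background level of 4.60. Aqp9 is higher in CCK-EGFP cells, Aqp4 overlaps between the groups, and the other 6 genes are lower in CCK-EGFP cells.

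Of the aquaglyceroporins, Aqp9 was higher in CCK-EGFP cells. Aqp9 carries glycerol and other neutral solutes and is best known as the glycerol entry route of hepatocytes, and it is also known from white blood cells. Its level was 10.08, 10.13 and 7.97 in CCK-EGFP cells, against 4.34, 4.36 and 5.05 in non-EGFP cells. All 3 CCK-EGFP arrays were above background, and only non-EGFP replicate 3 passed that level in its group. The log2 difference was 4.81 (SE 0.61), and against the background level the gene was at least 27.7-fold higher. By replicate number the differences were 5.74, 5.77 and 2.92, and the overall difference was 5.52 without CCK-EGFP replicate 3 and 4.44 to 4.46 without either of the other CCK-EGFP arrays. A difference at least this high was found in 1.04% of all genes. The gene's other probe set read 4.64, 4.10 and 3.27 in CCK-EGFP cells, against 3.05, 3.46 and 3.10 in non-EGFP cells. On that probe set both group means lay below background and the groups overlapped, and with the mean of both probe sets the difference was 2.80.

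Marker genes of the cell types best known for Aqp9 were set beside it. Of 9 neutrophil and myeloid markers measured, 0 were higher and 0 lower (limma, 0 and 4 at an unadjusted p under 0.05), and 5 were above background in each group. With the replicate number as a block, 2 of them were lower, S100a9 (limma adjusted p = 0.0384) and Lyz2 (0.0253). Their summed log2 level was 8.97 to 10.2 in CCK-EGFP cells, against 10.5 to 12.8 in non-EGFP cells. The neutrophil receptors Csf3r and Cxcr2, named after their values were seen, averaged 2.96 and 2.23 in CCK-EGFP cells, against 3.69 and 2.40 in non-EGFP cells, all below background. By contrast, S100a8 and S100a9 of the same list read 7.07 and 9.19 on CCK-EGFP replicate 1. On non-EGFP replicate 1 they read 10.85 and 11.79. On CCK-EGFP replicates 2 and 3 both were below background, and on non-EGFP replicates 2 and 3 only S100a9 was above it. Of 5 hepatocyte markers measured, 2 were higher and 1 lower, with a summed log2 level of 12.7 to 13.1 in CCK-EGFP cells, against 7.63 to 7.98 in non-EGFP cells. The higher ones, also named after their values were seen, were the carrier proteins Ttr (log2 difference 5.89) and Alb (4.17). Ttr, at 12.87 in CCK-EGFP and 6.98 in non-EGFP cells, dominated the CCK-EGFP sum. Fibrinogen Fgb was lower (-0.85, limma adjusted p = 0.0221), a call that ended without any 1 CCK-EGFP array (limma adjusted p up to 0.084). The hepatocyte enzyme Cyp2e1 was below background in both groups at 2.31 in CCK-EGFP and 2.90 in non-EGFP cells. The part of such cells in the Aqp9 level was not tested.

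The other aquaglyceroporins, Aqp3 and Aqp7, had lower values in CCK-EGFP cells. Aqp3 sits on the basolateral side of many epithelia, including the colon and the kidney collecting duct. It read 4.07, 5.64 and 6.46 in CCK-EGFP cells, against 8.79, 8.10 and 8.48 in non-EGFP cells. The CCK-EGFP arrays were spread over more than 2 log2 units, with replicate 1 below background, and all lay under the non-EGFP arrays. The log2 difference was -3.07 (SE 0.59), an 8.37-fold lower level. Leaving out 1 array at a time gave -3.60 to -2.40, the widest without CCK-EGFP replicate 3 and the narrowest without CCK-EGFP replicate 1. The gene's 3 other probe sets had log2 differences of -2.19, -1.58 and -0.53, with no overlap on any of them, and the mean of its 4 probe sets gave -1.84.

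Aqp7, the channel through which fat cells release glycerol, is also known from the epithelium of the small intestine. It read 7.57, 6.08 and 6.91 in CCK-EGFP cells, against 9.97, 9.84 and 8.78 in non-EGFP cells. The groups did not overlap, and all 6 arrays were above background. The log2 difference was -2.68 (SE 0.48), a 6.41-fold lower level, and the differences by replicate number were -2.41, -3.76 and -1.87. The probe set used has the suffix _x_at, which marks probes that can also bind other sequences. Its other probe set does not carry that suffix and differed by -2.18, without overlap. The 4 adipocyte markers measured went both ways, 1 higher and 1 lower, and their summed log2 level was 8.87 to 9.71 in CCK-EGFP cells, against 11.0 to 11.9 in non-EGFP cells. Leptin (Lep) and adiponectin (Adipoq), singled out after their values were seen, had means below background in both groups. The lipid droplet protein Cidec was the lower one (log2 difference -2.29). Cidec, at 9.14 in CCK-EGFP and 11.42 in non-EGFP cells, dominated that sum, so the sum describes this 1 gene. The higher one was the fatty acid binding protein Fabp4, at 5.02 in CCK-EGFP and 3.41 in non-EGFP cells (limma adjusted p = 0.0311). Fabp4 lost its call when any 1 array except CCK-EGFP replicate 2 was left out, and its 4 probe sets ranged from -0.38 to 1.61. The part of adipocytes in the Aqp7 level was not tested.

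Aqp3 and Aqp7 adjoin each other on chromosome 4, and their flanking genes, looked up after the values were seen, did not pass the test. Nfx1, on the far side of Aqp7, differed by 0.52 (limma adjusted p = 0.136). Nol6, on the far side of Aqp3, differed by 1.07 (limma adjusted p = 0.0522, and 0.0286 when blocking on replicate number). Both flanking genes had positive differences, and the channel genes between them negative ones. Of the other members' measured neighbours that are not aquaporins, Mindy4 beside Aqp1 was higher (log2 difference 2.59, limma adjusted p = 0.0162). The remaining 6 did not pass. Aqp2 and Aqp6, which flank Aqp5, are given below with the rest of the family.

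**Figure D2:**
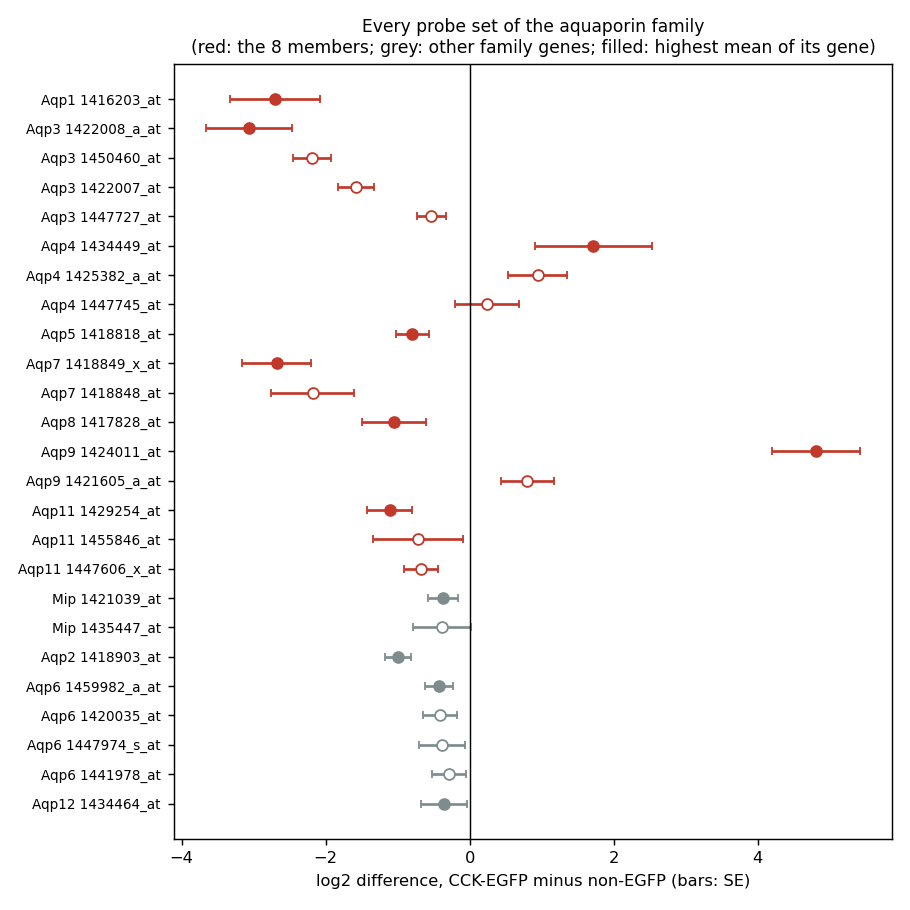
Log2 difference, CCK-EGFP minus non-EGFP, with its SE, for each probe set of the 8 members (red) and of 4 other family genes (grey), where filled points mark the probe set with the highest mean of its gene. The 4 probe sets of Aqp3 all lie below 0, and the 2 of Aqp9 lie at 4.81 and 0.80.

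Among the water channels, Aqp1 was the one with the widest difference. Aqp1 is the water channel of red blood cells, capillary endothelium and the kidney's proximal tubule. It read 7.73, 8.61 and 10.32 in CCK-EGFP cells, against 11.34, 11.82 and 11.62 in non-EGFP cells. The non-EGFP arrays lay close together and the CCK-EGFP arrays did not, replicate 3 being nearest to the non-EGFP cells. The log2 difference was -2.71 (SE 0.63), a 6.52-fold lower level. It was -3.42 without CCK-EGFP replicate 3 and -2.13 without CCK-EGFP replicate 1, the widest and narrowest of the 6 ways to leave out 1 array. The gene has 1 probe set. Only 0.313% of all genes had a lower difference.

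Endothelial and erythroid markers are given beside Aqp1 because those cells carry it. Of 7 endothelial markers, 1 was higher (the receptor Tie1, at 6.06 in CCK-EGFP and 3.96 in non-EGFP cells, limma adjusted p = 0.015) and 1 lower (the lymphatic marker Lyve1, at 5.27 in CCK-EGFP and 6.77 in non-EGFP cells, limma adjusted p = 0.0136), and their summed log2 level was 7.38 to 8.13 in CCK-EGFP cells, against 7.61 to 8.44 in non-EGFP cells. The other endothelial genes split, with Cdh5, Kdr, Tek and Plvap below background in both groups and Pecam1 above it in both, at 5.89 in CCK-EGFP and 5.56 in non-EGFP cells (limma adjusted p = 0.762). Endothelial and erythroid genes are named here with their values known. Of 4 erythroid markers, 0 were higher and 0 lower (limma, 0 and 1 at an unadjusted p under 0.05), with a summed log2 level of 6.22 to 8.94 in CCK-EGFP cells, against 6.53 to 10.8 in non-EGFP cells. The haemoglobin gene Hba-a1 and the membrane protein gene Epb42 were below background in both groups. The haem synthesis gene Alas2, at 7.44 in CCK-EGFP and 8.11 in non-EGFP cells, and the anion exchanger Slc4a1, at 4.69 in CCK-EGFP and 5.12 in non-EGFP cells, were above it in both. The part of endothelial and erythroid cells in the Aqp1 level was not tested.

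Aqp11, the channel of inner membranes, differed less. It read 8.08, 8.66 and 9.13 in CCK-EGFP cells, against 9.44, 9.90 and 9.87 in non-EGFP cells. The groups did not overlap, though CCK-EGFP replicate 3 and non-EGFP replicate 1 lay near each other. The log2 difference was -1.11 (SE 0.31), a 2.16-fold lower level. Its 2 other probe sets differed by -0.72, with overlap, and by -0.67, below background in both groups.

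Aqp5 and Aqp8 were near background in CCK-EGFP cells. Aqp5, the channel of the secretory face of salivary, tear and airway glands, read 4.44, 3.83 and 4.09 in CCK-EGFP cells, against 5.12, 4.93 and 4.70 in non-EGFP cells. No CCK-EGFP array passed the background level, and the non-EGFP arrays passed it narrowly. Against that level the gene was at least 1.25-fold lower (log2 difference -0.80, SE 0.23). Over all genes, 58.3% had a lower CCK-EGFP mean, and 14.5% had a lower difference than Aqp5. Of 3 Brunner gland markers measured, the glands of the duodenal wall, 0 were higher and 0 lower (limma, 0 and 0 at an unadjusted p under 0.05). Their summed log2 level was 10.1 to 12.4 in CCK-EGFP cells, against 11.0 to 12.2 in non-EGFP cells. Dmbt1, at 11.08 in CCK-EGFP and 11.39 in non-EGFP cells, dominated that sum, and the rest averaged at most 5.38 in either group.

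Aqp8, a channel for water, ammonia and hydrogen peroxide known from colon, pancreas and liver, read 4.72, 4.31 and 4.58 in CCK-EGFP cells, against 6.59, 4.94 and 5.23 in non-EGFP cells. All CCK-EGFP values were lower, and non-EGFP replicate 1 was set apart from the other two. The gene was at least 1.98-fold lower (log2 difference -1.05, SE 0.44), and 9.04% of all genes had a lower difference. Without non-EGFP replicate 1 the difference was -0.55, and without non-EGFP replicate 2 it was -1.38. Of 4 pancreatic acinar markers, 0 were higher and 0 lower (limma, 1 and 2 at an unadjusted p under 0.05). Their summed log2 level was 9.19 to 9.95 in CCK-EGFP cells, against 8.54 to 9.36 in non-EGFP cells. Cela1, at 9.56 in CCK-EGFP and 8.64 in non-EGFP cells, dominated that sum, and the rest averaged at most 5.01 in either group.

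Aqp4 was the member whose groups overlapped. It is the main water channel of brain astrocytes and also lies on the basolateral side of acid-secreting cells of the stomach. It read 7.87, 7.83 and 8.94 in CCK-EGFP cells, against 6.43, 4.88 and 8.18 in non-EGFP cells. The CCK-EGFP arrays lay closer together than the non-EGFP arrays, and non-EGFP replicate 3 lay above CCK-EGFP replicates 1 and 2. The log2 difference was 1.71 (SE 0.81), and it was 0.91 without non-EGFP replicate 2 and 2.56 without non-EGFP replicate 3. Taken by replicate number, the differences were 1.44, 2.95 and 0.76, all positive. Its other probe sets differed by 0.94 and 0.24, both with overlap. Of 5 enteric glia and neuron markers, 1 was higher and 0 lower (limma, 1 and 3 at an unadjusted p under 0.05), and their summed log2 level was 6.69 to 7.10 in CCK-EGFP cells, against 6.99 to 7.48 in non-EGFP cells. The higher one was Gfap, a glial filament gene picked here with its values known, at 4.69 in CCK-EGFP and 3.45 in non-EGFP cells. That call ended without CCK-EGFP replicate 1 or without CCK-EGFP replicate 2. Only 2 of its CCK-EGFP arrays were above background, and its 3 probe sets ranged from -0.40 to 1.25.

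Within the CCK-EGFP group, the arrays differed most for Aqp1, Aqp3 and Aqp9. Replicate 3 had the highest Aqp1, Aqp3 and Aqp11 and the lowest Aqp9 of its group, in each case the CCK-EGFP value nearest to the non-EGFP cells, and it was also the array with the highest enterocyte marker mean. It also had the highest Aqp4, which there was the CCK-EGFP value farthest from the non-EGFP mean. Aqp5, Aqp7 and Aqp8 were highest on CCK-EGFP replicate 1. Of the 11 enterocyte markers, 0 were higher and 3 lower (limma, 0 and 7 at an unadjusted p under 0.05), with a median log2 difference of -0.82 and a summed log2 level of 16.4 to 16.8 in CCK-EGFP cells and 17.1 in all non-EGFP arrays. That count of lower markers was 5 without CCK-EGFP replicate 3, 0 without any 1 of the other arrays and 1 when blocking on replicate number. The mean of the enteroendocrine markers was 13.12, 12.95 and 12.88 in CCK-EGFP cells, against 8.55, 8.39 and 8.84 in non-EGFP cells. The part of enterocyte content in the aquaporin differences was not tested.

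**Figure D3:**
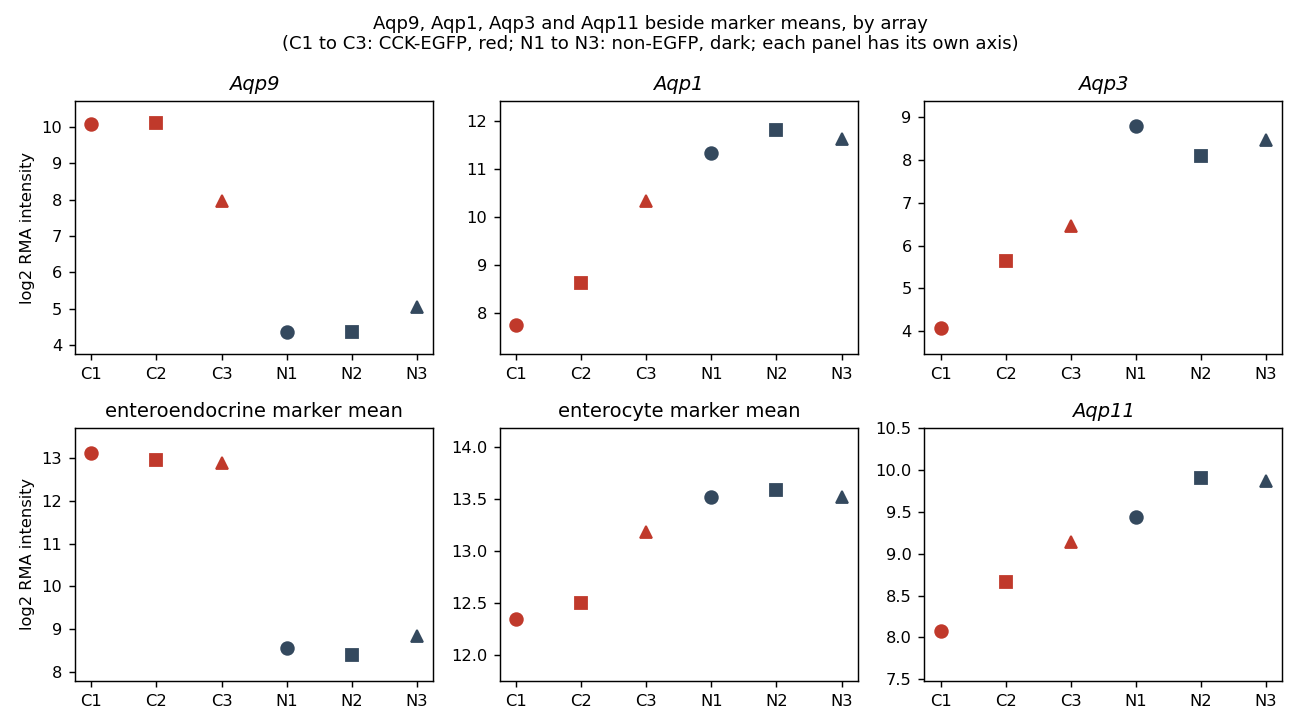
Log2 RMA intensity of Aqp9, Aqp1, Aqp3 and Aqp11 and the mean log2 intensity of 10 enteroendocrine and 11 enterocyte markers on each array, CCK-EGFP arrays (C1 to C3) left of non-EGFP arrays (N1 to N3), each panel with its own vertical axis. C3 is the CCK-EGFP array with the lowest Aqp9 (7.97), the highest Aqp1 (10.32) and the highest enterocyte mean (13.19).

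The genes most like each member were taken as the 3 with the highest Pearson correlation over the 6 arrays among the genes above background, which share the same arrays and the same split into groups. The closest gene to Aqp9 was Cav2, a caveolin of membrane pits (r = 0.9997, log2 difference 5.87), followed by Creg1 (r = 0.9992) and Farp1 (r = 0.9988). With each array taken as its deviation from the group mean, Cav2 again came first for Aqp9 (r = 0.9999) and Chst4 for Aqp3 (r = 0.9975), while Psmd13 came first for Aqp1, Vti1b for Aqp7, Gprasp2 for Aqp11, Hbp1 for Aqp5, Dnase1l2 for Aqp8 and Tfrc for Aqp4. The closest to Aqp1 were the cytochrome P450 Cyp4f14 (r = 0.9994), Plekhf1 (r = 0.9986) and Sectm1b (r = 0.9983). The closest to Aqp3 were the sulfotransferase Chst4 (r = 0.9993), Tcf25 (r = 0.9980) and Smim20 (r = 0.9979). The closest to Aqp7 were Selenoi (r = 0.9988), a phospholipid-synthesis enzyme, Emp1 (r = 0.9977) and the sterol-synthesis enzyme Sc5d (r = 0.9969). Lrat, the enzyme that forms retinyl esters, came first for Aqp11 (r = 0.9977), Tmem140 for Aqp5 (r = 0.9986), Mdm2 for Aqp8 (r = 0.9924) and Nemf for Aqp4 (r = 0.9978). With 12974 or 12975 genes compared over 6 arrays, the top value was at least 0.992 for every member, so these names are a description alone.

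The rest of the family was tested, though it is what remained after the members were picked on this same contrast. The p-values of these remaining genes are therefore not independent of that choice and are given as a description. Of 4 further aquaporin genes, 0 were higher and 1 was lower, with a median log2 difference of -0.40 (limma, 0 higher and 1 lower at an unadjusted p under 0.05). Over all genes, 14.0% were higher and 10.2% lower by this test, 24.1% in all. The lower one was Aqp2, the vasopressin-controlled water channel of the kidney collecting duct, which read 4.16, 4.25 and 4.10 in CCK-EGFP cells, against 5.01, 5.32 and 5.14 in non-EGFP cells. Its groups did not overlap, and its CCK-EGFP mean was below background, so the level was at least 1.47-fold lower (log2 difference -0.99, SE 0.18, limma adjusted p = 0.0119). The call of Aqp2 ended without CCK-EGFP replicate 1 (limma adjusted p = 0.0511).

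Aqp6, an intracellular channel of the kidney, differed by -0.42 (limma adjusted p = 0.156). Aqp12, known from pancreatic acinar cells, differed by -0.36 (limma adjusted p = 0.41). The lens channel Mip was below background in both groups, at 2.99 ± 0.27 in CCK-EGFP cells, against 3.36 ± 0.09 in non-EGFP cells (SD, n = 3 each, limma adjusted p = 0.214). Aqp2, Aqp5 and Aqp6 stand in a row on chromosome 15, and all of their differences were negative and under 1 log2 unit in size.

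Glycerol that passes an aquaglyceroporin is made or used by enzymes of fat metabolism, and these moved in both directions. The 15 measured genes of glycerol metabolism split into 3 higher, 6 lower and 6 not past the test, with a median log2 difference of -0.82. The lipases that act on lipoprotein triglyceride and on monoacylglycerol were among the higher ones. Lpl, lipoprotein lipase, averaged 11.89 ± 0.42 in CCK-EGFP cells, against 3.07 ± 0.58 in non-EGFP cells (SD, n = 3 each), below background, and was at least 157-fold higher (limma adjusted p = 0.000104). Mgll, which releases glycerol from monoacylglycerol, read 12.08, 12.37 and 10.97 in CCK-EGFP cells, against 7.22, 6.59 and 6.78 in non-EGFP cells. Mgll was 30.8-fold higher (log2 difference 4.95, SE 0.40, limma adjusted p = 0.000679), but its 4 probe sets ranged from -0.10 to 5.06.

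Lipe and Mogat2, of the same list, were lower. Lipe, hormone-sensitive lipase, read 7.54, 7.01 and 8.62 in CCK-EGFP cells, against 10.41, 10.13 and 10.15 in non-EGFP cells. It was 5.67-fold lower (log2 difference -2.50, limma adjusted p = 0.00862), and its other probe set differed by -0.22. Mogat2, which rebuilds triglyceride from absorbed monoacylglycerol in enterocytes, was lower (log2 difference -1.87, limma adjusted p = 0.0198). The call of Mogat2 ended without replicate 1 or 2 of either group (limma adjusted p up to 0.0787). The glycerol-3-phosphate dehydrogenases Gpd2 (-0.82, limma adjusted p = 0.0604) and Gpd1 (-0.58, limma adjusted p = 0.211) did not pass. Probe sets ranged from -2.14 to -0.08 for Gpd2 and from -1.74 to -0.26 for Gpd1. The count of 6 lower genes became 3 without CCK-EGFP replicate 1, non-EGFP replicate 1 or non-EGFP replicate 2, and 2 without CCK-EGFP replicate 2.

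Transporters that move the salt that water follows differed in both directions. Of these 25, the test gave 2 higher, 6 lower and 17 not past it, with a median log2 difference of -0.61. The chloride channel Clcn2 read 8.42, 8.92 and 9.91 in CCK-EGFP cells, against 11.55, 11.69 and 11.60 in non-EGFP cells. Clcn2 was 5.78-fold lower (log2 difference -2.53, SE 0.38, limma adjusted p = 0.00639). Slc9a3, the sodium-hydrogen exchanger of the brush border, read 8.98, 8.95 and 10.48 in CCK-EGFP cells, against 11.91, 12.05 and 11.64 in non-EGFP cells. Slc9a3 was 5.26-fold lower (limma adjusted p = 0.0122), and on both genes the array nearest to the non-EGFP cells was CCK-EGFP replicate 3.

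The potassium channel Kcnq1 and the calcium-activated chloride channel Ano1 were the higher genes of that list. Kcnq1 read 10.23, 10.66 and 9.71 in CCK-EGFP cells, against 6.90, 7.34 and 8.40 in non-EGFP cells (6.30-fold higher, limma adjusted p = 0.00877). Ano1 was higher by 2.77 on the log2 scale (limma adjusted p = 0.0343), a call that ended when CCK-EGFP replicate 1 or 2, or else non-EGFP replicate 2 or 3, was left out (limma adjusted p up to 0.108). The other probe set of Ano1 differed by 0.98. The scaffold Slc9a3r1 (-0.50, limma adjusted p = 0.0996) did not pass. The sodium pump subunit Atp1b1 stood at 12.98 ± 0.10 in CCK-EGFP and 13.05 ± 0.17 in non-EGFP cells (SD, n = 3 each, limma adjusted p = 0.788). Probe sets ranged from -1.21 to -0.50 for Slc9a3r1 and from -0.83 to -0.07 for Atp1b1. The count of 6 lower genes became 3 without CCK-EGFP replicate 1, non-EGFP replicate 1 or non-EGFP replicate 2, and 2 without CCK-EGFP replicate 2. It was 10 with the mean of all probe sets or with each array centred on its median.

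Genes of the response to osmotic stress and cell swelling gave 3 higher, 2 lower and 10 not past the test among 15, with a median log2 difference of -0.07. Hspa4l, an osmotic stress chaperone, was higher by 2.49 on the log2 scale (10.25 ± 0.37 in CCK-EGFP cells, against 7.76 ± 0.16 in non-EGFP cells, SD, n = 3 each, limma adjusted p = 0.0013). Stk39, a kinase that activates salt cotransporters, was 3.78-fold higher (limma adjusted p = 0.00537). Its upstream kinase Wnk1 was higher by 0.91 (limma adjusted p = 0.0452), and blocking on replicate number gave a limma adjusted p of 0.0565. The call of Wnk1 ended when any 1 array except non-EGFP replicate 1 was left out (limma adjusted p up to 0.132), and its probe sets ranged from -0.52 to 0.91. Trpv4, a swelling-gated channel, was lower (log2 difference -1.18, limma adjusted p = 0.0191), with a CCK-EGFP mean of 3.55 below background and a non-EGFP mean of 4.72. The call of Trpv4 ended without CCK-EGFP replicate 1 or 2 (limma adjusted p up to 0.077), when the list had 0 lower genes, and 1 was left without any 1 non-EGFP array or when blocking on replicate number. The volume-regulated anion channel subunits Lrrc8a (-0.07, limma adjusted p = 0.815) and Lrrc8d (-0.22, limma adjusted p = 0.432) did not pass.

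Urea, which Aqp3, Aqp7 and Aqp9 can also carry, has its own transporters and is made by arginase. Of 4 such genes 1 was higher and 0 lower (limma, 1 and 0 at an unadjusted p under 0.05). Arg1 read 7.02, 7.64 and 5.61 in CCK-EGFP cells, against 5.24, 4.47 and 4.19 in non-EGFP cells. It was 4.35-fold higher (limma adjusted p = 0.0373). Leaving out any 1 array except CCK-EGFP replicate 3 ended the call of Arg1 (limma adjusted p up to 0.111). Arg2 (-1.03, limma adjusted p = 0.124) and the urea transporter Slc14a1 (0.35, limma adjusted p = 0.568) did not pass. The other probe set of Slc14a1 differed by 2.16.

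For proteins that anchor or regulate aquaporins, 12 genes gave 0 higher, 1 lower and 11 not past the test (limma, 1 higher and 1 lower at an unadjusted p under 0.05), with a median log2 difference of 0.11. The lower gene was Ezr, which encodes ezrin, the linker of membrane proteins to actin in microvilli. It read 10.74, 11.08 and 11.04 in CCK-EGFP cells, against 12.04, 12.23 and 12.12 in non-EGFP cells. Ezr was 2.26-fold lower (limma adjusted p = 0.00787). Hspa8, a chaperone that binds Aqp2 (0.27, limma adjusted p = 0.255), and the protein kinase A subunit Prkaca (0.63, limma adjusted p = 0.09) did not pass.

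**Figure D4:**
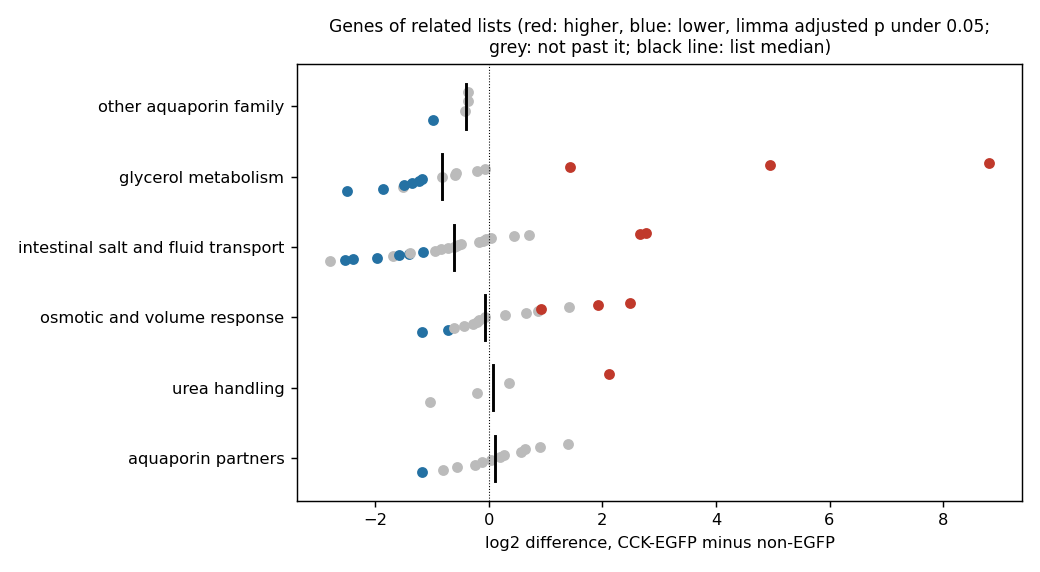
Log2 difference, CCK-EGFP minus non-EGFP, of each gene in 6 lists related to aquaporins, red where higher and blue where lower at a limma adjusted p under 0.05, grey where not past it, with a black line at each list's median. Glycerol metabolism spans from Lipe at -2.50 to Lpl at 8.82.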

How the data were processed

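Total RNA of 6 samples was measured on Affymetrix mouse arrays. The authors deposited log2 values made with RMA, per the submitters' processing notes, a method that subtracts background, gives all arrays 1 distribution and reduces each probe set to 1 value, with no detection call. The RMA version is not given in the sources used here. That the scale is log2 was taken from the values, which run from 1.47 to 14.8. The deposited values nevertheless differed in array median between the groups, at 5.66 to 5.72 (CCK-EGFP) and 5.37 to 5.55 (non-EGFP). Of 45101 probe sets, 34945 had 1 gene symbol in the platform annotation, which can be old, 932 had several, 64 were controls and 9160 were not listed. Each of 18193 genes, 9010 with several probe sets, was represented by the set with the highest 6-array mean.

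The test was limma 3.58.1 under R 4.3.3, two-sided, fitted to all 18193 genes with moderated variances and Benjamini-Hochberg adjustment at 0.05. Its code was run on simulated data with independent noise and known differences, which says nothing about the calls made here. Python 3.11.15, pandas 2.3.3, numpy 2.4.6 and matplotlib 3.10.9 made the tables and figures. Members, lists and tests were chosen with earlier results of these data known. The text names the members, the other aquaporin genes, Cck, from each related list at most the 4 widest differences past the threshold and the 2 genes of highest mean level not past it, and the genes closest to each member by Pearson r. The fold of a group below background was computed against that level and is a lower bound. Arrays number 3 a group, which limits the precision. Each group's titles carry the numbers 1 to 3, with no word on what they mark. Over genes, deviations of same-number arrays from their group means correlated at 0.27, 0.159 and 0.219, each above 0.1, so same-number samples were treated as pairs in the blocked alternative, and the test as chosen has no block.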

Additional observations from a re-analysis of the deposited data

How the results depend on the processing

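The 8 members kept their directions under every alternative run, with 6 lower in each, and the median member difference was -1.22 to -0.98 leaving out 1 array at a time. Of 17 probe sets, 12 to 13 were lower leaving out 1 array. Aqp9 (2.80) and Aqp3 (-1.84) moved by more than the replicate spread with the mean of all probe sets. Centring each array on its median moved the median difference of all genes to -0.42, against -0.17, a shift that is the same for every gene. Relative to the median of all genes, Aqp9 stood at 4.98 and Aqp3 at -2.90. Centring gave 2101 higher and 3605 lower genes, against 2540 and 1851, and 10 lower salt transport genes, as did the mean of all probe sets. A second quantile normalization gave 2117 higher and 2588 lower genes, with 1 higher salt transport gene and 0 higher urea genes. The mean of all probe sets gave 1 higher salt transport gene and 1 higher aquaporin partner. With the replicate number as a block 1 osmotic gene was lower, not 2, and of the 29 genes named by rule Wnk1 lost its call. Of the 19 others, Fgb (limma adjusted p = 0.0519) and Gfi1b (0.0581) lost it, and Nol6 (0.0286), Lyz2 and S100a9 gained one. The block also gave 4 lower Paneth markers and 2 lower myeloid markers, not 0, 1 lower enterocyte marker, not 3, 0 lower hepatocyte and 0 lower stromal markers, not 1 each, and 2 higher stem and crypt markers, not 1. Leaving out 1 array gave 1365 to 2486 higher and 505 to 1962 lower genes. Over the same fits, lower genes numbered 0 to 1 in the other aquaporins, 2 to 8 in glycerol metabolism, 2 to 9 in salt transport and 0 to 2 in the osmotic list, and higher genes 1 to 2 in salt transport, 0 to 1 in urea handling and 0 to 1 in aquaporin partners (1 without non-EGFP replicate 1). Differences near 0 changed sign for Atp1b1 (0.0015) and Slc14a1 (-0.18) with a second quantile normalization, and leaving out 1 array gave -0.16 to 0.0069 for Atp1b1, -0.20 to 0.058 for Lrrc8a and -0.050 to 0.68 for Slc14a1. Of the markers followed over these settings, Pecam1 changed sign with a second quantile normalization (-0.14). Leaving out 1 array gave -1.96 to 0.61 for Alas2, -0.40 to 1.10 for Pecam1, -3.51 to 0.27 for S100a9 and -0.87 to 0.26 for Slc4a1. For the 29 tested genes named by rule and 19 of the markers and neighbours, 501 gene and setting pairs kept direction and side of the threshold, 48 lost the call, 14 gained it and 12 changed sign. Markers named as below background, the markers S100a8, Cela1 and Dmbt1, and the members, which have no test, are not in that count. The cause of these changes was not tested. Aqp2, Aqp5, Aqp8 and the non-EGFP level of Aqp9 lie near background, which limits their folds. Whether genes near background are lower in CCK-EGFP cells in general was not tested.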

Other observations

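Markers of further intestinal cell types gave these values. The 6 tuft cell markers gave 3 higher and 0 lower (limma, 3 and 0 at an unadjusted p under 0.05), with a mean log2 level of 6.97 to 8.18 on CCK-EGFP arrays, against 5.01 to 5.90 on non-EGFP arrays. The higher ones, named after their values were seen, were the leukotriene cofactor Alox5ap (log2 difference 4.35), the kinase Dclk1 (4.16) and the repressor Gfi1b (1.76). The call of Gfi1b ended with the block and when any 1 array except CCK-EGFP replicate 3 was left out. The 9 probe sets of Dclk1 ranged from -0.06 to 4.16. The tuft cell factor Pou2f3 was below background in both groups, at 3.05 in CCK-EGFP and 2.63 in non-EGFP cells. Of 7 goblet markers 1 was higher and 2 were lower, the lower count being 0 without replicate 1 of either group or CCK-EGFP replicate 2 and 1 without any 1 other array. Of 6 stem and crypt markers 1 was higher and 0 were lower (limma, 2 and 0 at an unadjusted p under 0.05). Of 5 Paneth markers and 8 lymphocyte markers, 0 were higher and 0 lower (limma, 0 and 0 at an unadjusted p under 0.05 for each list). Blocking on replicate number gave 4 lower Paneth markers (limma adjusted p 0.0247 to 0.0352) and 0 lower lymphocyte markers. The lymphocyte sum was 12.9 to 14.7 in CCK-EGFP and 13.3 to 14.6 in non-EGFP cells. Of 8 stromal and muscle markers 0 were higher and 1 was lower (limma, 1 and 2 at an unadjusted p under 0.05). The lower stromal count was 2 without non-EGFP replicate 3, 1 without CCK-EGFP replicate 1 and 0 without any 1 other array or with the block. The part of these cells in the aquaporin values was not tested.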
